A study of Mus musculus with 16 samples.

Results

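Of the 372 mouse genes whose RefSeq symbol is Zfp followed only by digits, 38 held a region of Dazl crosslinking within their span, and 36 could be given at least 1 region of their own. These 36 genes carried 66 of the 8338 regions and were 36 of the 3203 genes with a region. They were chosen by symbol and by having a listed region, not by how their coverage changed. Every listed region had a coverage of at least 1 in all 12 libraries, so having one depends on coverage. The other 2, Zfp646 and Zfp276, had only regions that also lie in another protein-coding gene, and were left out of every count below. Zfp36, the CCCH protein that binds AU-rich elements in messenger RNA, had 0 regions.

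The libraries came from KIN-CLIP, an iCLIP method in which a femtosecond pulsed ultraviolet laser crosslinks a protein to the RNA it touches during a timed exposure, and the series is titled for the kinetics of such a protein in cells. All samples were GC-1 spg cells, which go back to mouse spermatogonia, as 1 monoclonal line in which doxycycline induces Dazl; every library therefore describes induced Dazl in 1 clone. The 12 libraries analysed covered 30, 180 and 680 s, laser powers of 1 and 2.6 mW, and 1x and 4.2x Dazl, with 1 library for each condition and no replicates. The 4 samples of 0 s were not analysed here, so no uncrosslinked background stands beside the values. Among cell type markers, 1 of 14 germ cell markers had a region (Sall4, mean coverage 1.667), and so did 2 of 7 Sertoli markers (Dhh at 12.33 and Wt1 at 12.83), 0 of 6 Leydig markers, 0 of 4 macrophage markers and 1 of 4 endothelial markers (Kdr at 4.333), where 14.5% of all protein-coding genes had one, so these counts do not tell the cell type. All samples were of the 1 line and not of a tissue, and whether any other cells were present was not tested.

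Most proteins with a Zfp symbol carry C2H2 zinc fingers, loops held by a zinc ion that read DNA sequence one after the other. Many also have a KRAB domain, which recruits the co-repressor Trim28 and with it heterochromatin, and silence retrotransposons; their genes often lie in clusters of similar copies. A few symbols go with another kind of protein, such as the LIM-domain protein of Zfp185 or the RNA-binding protein of Zfp106. Dazl is a germ cell RNA-binding protein that recognises GUU-containing sites, mostly in 3′ untranslated regions, and regulates the stability and translation of its targets.

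For 2 member regions the bases could be shown, because they lie in a RefSeq promoter window of their own gene (GRCm38.p6, the assembly called mm10). Such a window runs from 250 bases before to 50 bases after a start site, and both genes have windows for several start sites; the windows that hold these regions belong to start sites inside the gene's outermost start. The regions are printed because they lie near the start of their gene, away from the place where Dazl is best known to bind, and both genes return in the results on time. Capitals mark the crosslinked region and lower case the 6 bases on each side, on the strand of the gene.
Zfp473, chr7:44748495-44748511, minus strand: gtgcccTGCTGGAAACTCCATTTcccaga
Zfp317, chr9:19622290-19622306, plus strand: tggtaaGCCCGTGGTTCGTCACTtaaccc
The letters GTT occur within the capitals of Zfp317, and within those of Zfp473 only on the opposite strand, as AAC. Over all genes, 53 regions of 17 nt lay in a promoter window of their own gene; GTT occurred on the gene's strand in 25 (47.2%) and on the other strand in 10 (18.9%), and the longer TTGTT, which contains GTT, in 3 (5.66%) and 0. The files give no strand, so reading a region on its gene's strand is an assumption.

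Coverage below is the authors' normalized coverage summed over the positions of a region, and over the regions of a gene. Its counting error could not be estimated here because the read depth is unknown. The library sum over all regions ranged from 11271 to 252932. Coverage depends on the amount of an RNA as well as on its binding by Dazl, and these cannot be told apart here; nor can fewer cells with an RNA and less RNA per cell.

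The Zfp genes with a region had coverage like that of other genes. Of all 372 Zfp genes 9.68% had a region of their own, against 14.5% of the 21900 protein-coding genes in the table. By the number of Zfp neighbours the share was 17.4% (20 of 115) for genes with no other Zfp gene within 500 kb, 12.3% (10 of 81) with 1 or 2, and 3.41% (6 of 176) with 3 or more. The 6 listed genes of the densest neighbourhoods had a median mean coverage of 9.625, against 16.58 for the 20 without a neighbour. Those with the most neighbours, Zfp568 (14 neighbours, mean 20.17) and Zfp111 (11, mean 33.08), lay above both medians. The others were Zfp444 (9.917), Zfp963 (9.333), Zfp810 (6.167) and Zfp786 (3.75). Genes in such clusters can have near-identical copies between which reads may be split, so a missing region there is uncertain; the part of this was not tested. Over the 12 libraries the median of the members' mean coverage was 15.25, beside 16.33 for the other genes, and 17 of 36 members lay above the latter. Per region the medians were 10.88 and 11.75. A single region was the rule for both: 19 members (52.8%) had 1 region, 10 had 2 and 7 had 3 or more, while 49.2% of other genes had 1.

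The members together held between 0.7% and 1.04% of all gene coverage in a library, with a median of 0.796%, and they were 1.12% of the genes with 0.842% of the assigned regions. Their share was highest, at 1.04% and 0.923%, in the weakest series at 30 and 180 s (1 mW, 1x), which had the smallest totals. In these libraries 59.1% and 72.7% of member regions stood at a coverage of 1, the lowest listed, beside 74.0% and 80.4% of other regions. The lowest share, 0.7%, was that of the 2.6 mW, 1x series at 30 s.

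**Figure D1:**
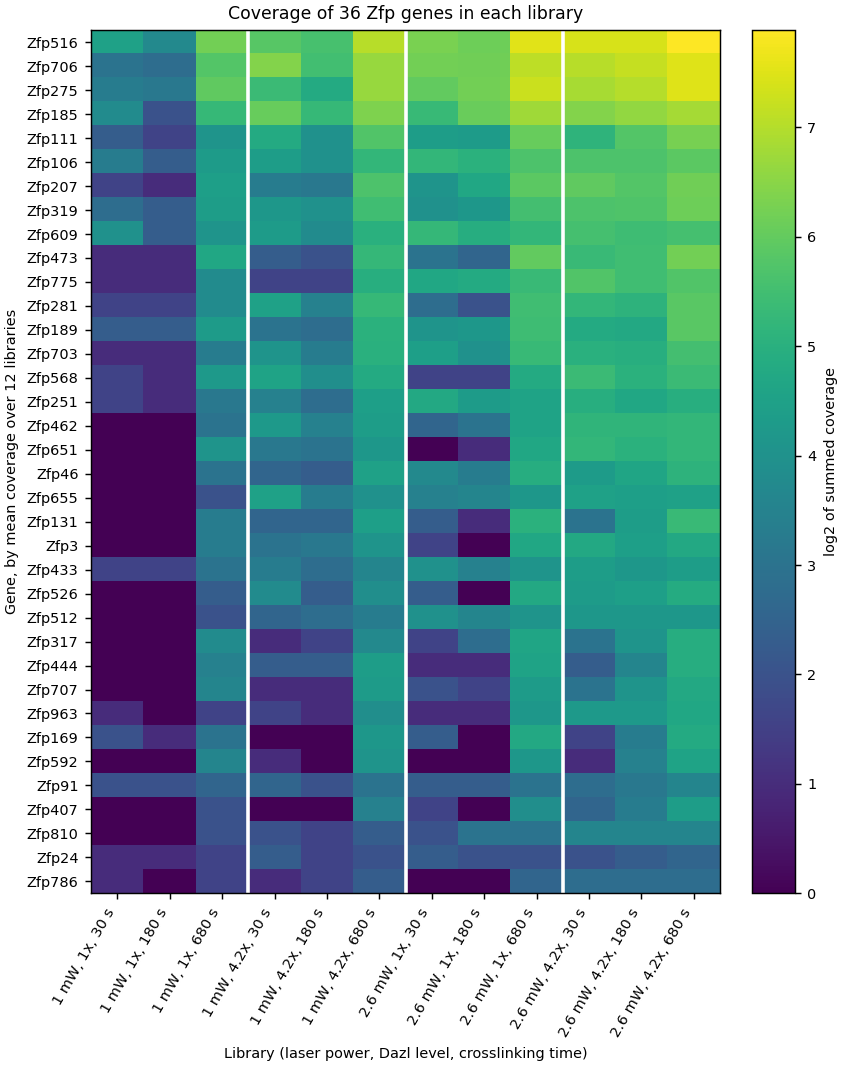
Heat map of the 36 Zfp genes (rows, by mean coverage) in the 12 libraries (columns), coloured by log2 of the authors' normalized coverage summed over the regions of a gene; white lines part the 4 series. Zfp516 leads with a mean of 105 and Zfp786 is lowest with 3.75, and most genes are at their lowest in the libraries of 30 and 180 s with 1 mW and 1x Dazl.

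Zfp516, a transcription factor of brown fat, had the highest mean coverage, 105 (rank 207 of all genes), over 5 regions on chromosome 18. At 30, 180 and 680 s, the order used for all values below, Zfp516 had 23, 13 and 74 with 1 mW and 1x Dazl, 57, 48 and 133 with 1 mW and 4.2x, 79, 71 and 184 with 2.6 mW and 1x, and 170, 171 and 237 with 2.6 mW and 4.2x. In each series of 3 times the 680 s library was highest, while 30 and 180 s lay close to each other except in the weakest series. Zfp706, known from the exit of embryonic stem cells from self-renewal, had 8, 7 and 55, then 86, 45 and 101, then 74, 73 and 137, then 132, 147 and 182 in the same order of series (4 regions, mean 87.25). Zfp275 had 10, 9 and 62, then 42, 28 and 101, then 64, 74 and 153, then 116, 128 and 181 (6 regions, mean 80.67). Zfp185, whose protein binds the actin cytoskeleton, had 14, 4 and 39, then 66, 39 and 82, then 40, 68 and 108, then 86, 97 and 114 (2 regions, mean 63.08). In all 4 genes the lowest value was that of the 180 s library in the weakest series (1 mW, 1x) and the highest that of the 680 s library in the strongest (2.6 mW, 4.2x).

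A gap in level separated these 4 from the rest. The next members by mean coverage were Zfp111 (33.08), Zfp106 (32.92), Zfp207 (32.67), Zfp319 (30.58), Zfp609 (28.83), Zfp473 (26.17), Zfp775 (25.17) and Zfp281 (23.08), and neighbours in this order differ by little. Zfp207 encodes BuGZ, which binds Bub3 at kinetochores in mitosis, Zfp609 a partner of the cohesin loader Nipbl, and Zfp281 a transcription factor of embryonic stem cells. Zfp473 encodes the ZFP100 subunit of the U7 small nuclear ribonucleoprotein, which cuts the 3′ end of histone messenger RNA. At the low end, Zfp24, a SCAN-domain protein needed for myelination, had 2 to 6 in all 12 libraries, and Zfp786 had 1 to 7. Zfp91, an E3 ubiquitin ligase, had 4 to 12, and both of its regions also lie in the noncoding gene Gm44505; the single region of Zfp131, a BTB-domain protein, also lies in the noncoding Gm41077.

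Member regions looked like other regions in width, but a smaller share lay near the 3′ end of the gene where strand was known. Exactly 17 nt were covered by 55 of 66 member regions (83.3%) and by 81.9% of others. The median distance to the nearer gene end was 1875 nt, against 1326 nt, and 28.8% (19) of member regions lay within 1000 nt of an end against 42.7%. The members were the shorter genes, with a median span of 19424 nt against 31720 nt. Strand was known for 26 members with 46 regions, and not for Zfp24, Zfp251, Zfp407, Zfp462, Zfp516, Zfp568, Zfp609, Zfp703, Zfp706 and Zfp707. Among the 46 the median distance to the gene's 3′ end was 3072 nt, beside 1667 nt for regions of other genes, and 19.6% (9) lay within 1000 nt of it, beside 37.5%. Exons are not in the annotation used, so whether a region is in an untranslated region, a coding exon or an intron was not determined. These shares are descriptions, since regions of 1 gene share their source.

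Near the gene start the members had the larger share: 5 of 46 regions (10.9%), in 5 genes, lay within 300 nt of the outermost start, against 3.55% of other regions. They were in Zfp207 (45 nt from the start), Zfp473 (106 nt), Zfp3 (110 nt), Zfp512 (154 nt) and Zfp317 (252 nt). The start region of Zfp473 had 1, 1 and 14, then 4, 3 and 20, then 5, 4 and 47, then 34, 30 and 50. It was tied with the gene's other region, 3064 nt from the end, in the libraries of 30 and 180 s with 1 mW and 1x, and higher in the other 10. The start region of Zfp317 had 1, 1 and 14, then 2, 3 and 13, then 3, 7 and 25, then 8, 17 and 30. At the other end, both regions of Zfp775 lay within 143 nt of the gene's 3′ end, and 3 of the 6 regions of Zfp275 within 235 nt of it.

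**Figure D2:**
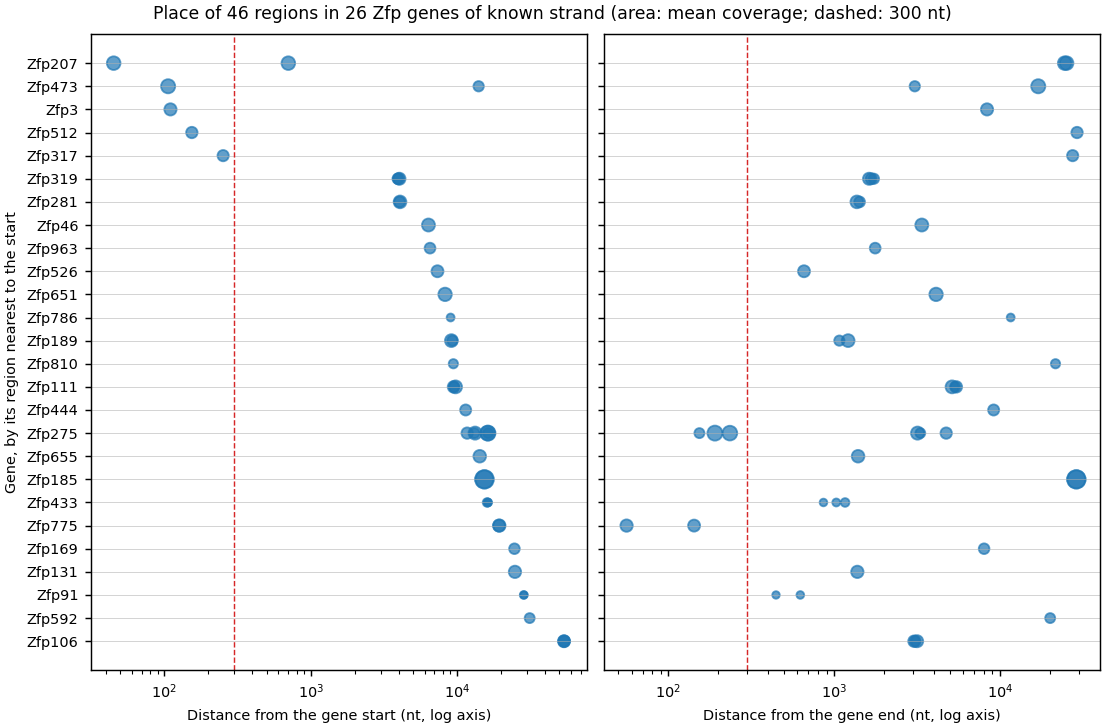
Distance of the 46 member regions with a known gene strand from the start and from the end of their gene, in nt on log axes; the area of a point grows with mean coverage and the dashed line stands at 300 nt. The 5 regions within 300 nt of a start belong to Zfp207, Zfp473, Zfp3, Zfp512 and Zfp317.

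Where a member had several regions they were usually close together, and some close neighbours had very different time courses. All regions lay within 500 nt in 13 of 17 such members (76.5%, against 59.2% of other genes with several regions), the exceptions being Zfp207 (675 nt from first to last base), Zfp703 (932 nt), Zfp275 (4602 nt) and Zfp473 (13968 nt). Among genes with exactly 2 regions the order was the other way, 70% of members against 83.8% of others. With 2.6 mW and 4.2x Dazl, the 2 regions of Zfp189, 122 nt apart, had 27, 26 and 27 against 1, 1 and 31. The first was thus at 100% of its 680 s value by 30 s and the second at 3.23%. The 3 regions of Zfp111 had 25, 24 and 25, then 3, 12 and 27, then 7, 19 and 25 in that series, so that 3 regions within 334 nt were alike at 680 s and apart at 30 s. In Zfp275 the 30 s value was between 7.14% and 100% of the 680 s value, and in Zfp516 between 22.7% and 100%. Zfp251, Zfp433, Zfp609 and Zfp775 had every region at 100%. In all, 7 of the 17 members had regions more than 50 percentage points apart and 4 at most 10 points.

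**Figure D3:**
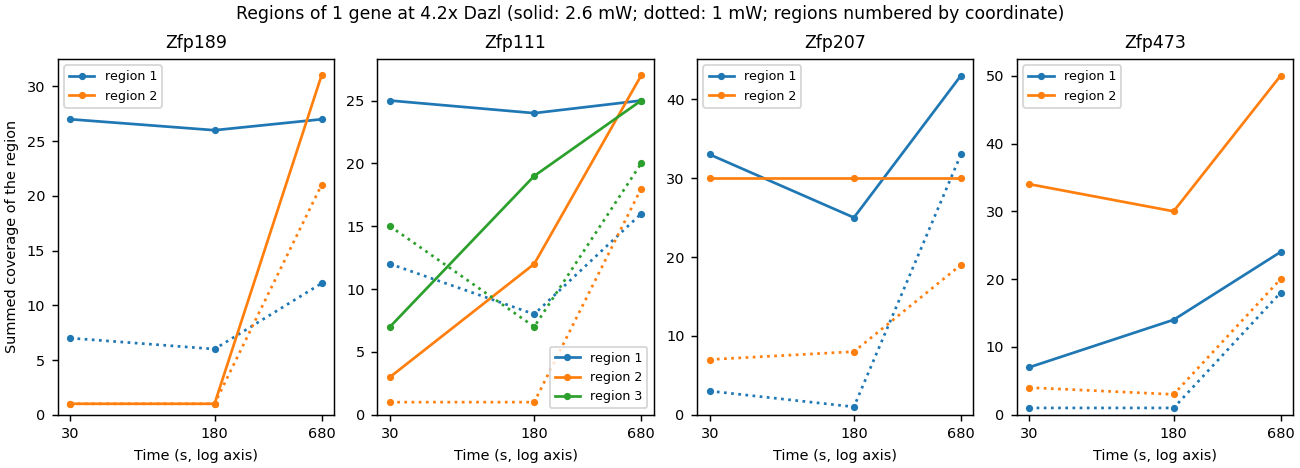
Coverage of single regions of Zfp189, Zfp111, Zfp207 and Zfp473 at 4.2x Dazl (solid lines 2.6 mW, dotted lines 1 mW), as the authors' normalized coverage summed over the region against time in s on a log axis. With 2.6 mW one region of Zfp189 stays at 26 to 27 while the other goes from 1 to 31.

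Equal values at 30 and 680 s were as common in members as elsewhere. In the series with 2.6 mW and 4.2x Dazl, 27 of the 59 member regions with at least 10 at 680 s (45.8%) had the same whole value at both times, beside 45.6% of other regions; for genes the shares were 29.4% (10 of 34) and 23.3%. No member was lower at 680 s than at 30 s there, and neither was any other gene. Among genes with at least 10 at 680 s, the highest 30 s value in that series was 100% of the 680 s value in both sets. In the 1 mW, 4.2x series it was 144% in members and 142% in other genes. In the series of 1 mW and 1x, 1 mW and 4.2x, and 2.6 mW and 1x such ties were few, 0.0%, 1.85% and 0.0% of member regions beside 0.321%, 2.56% and 1.54% of others. How the ties arose was not tested, and the p-values below treat all libraries as independent.

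Coverage of the members was higher with more Dazl. In matched libraries Zfp568, a KRAB protein that represses Igf2, had 3, 2 and 19 at 1x against 24, 15 and 28 at 4.2x with 1 mW, and 3, 3 and 28 against 42, 33 and 42 with 2.6 mW. Its 4.2x value was higher in 6 of 6 pairs, by 1.76 ± 0.29 (SE) on the scale of log2(coverage + 3), the scale of all changes below, with adjusted p = 2.07e-06 (limma, 12 libraries). Zfp462, which acts in heterochromatin, rose by 1.65 ± 0.28 (adjusted p = 3.66e-06) and the BTB-domain Zfp651 by 1.62 ± 0.30 (adjusted p = 2.4e-05), each in 6 of 6 pairs. Of 36 members 29 were higher at 4.2x at an adjusted p under 0.05 in limma (80.6%) and 0 lower, where 82.4% of all genes were called higher, so the members' share is that of the background. Their median change was 0.92, beside 0.88 for other genes. The 7 not called were Zfp169 (0.19 ± 0.24, higher in 3 of 6 pairs), Zfp24, Zfp91, Zfp317, Zfp189, Zfp609 and Zfp775.

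Against genes of equal coverage no member was called for Dazl. For this comparison the smooth trend of log2 coverage on a gene's mean was taken off in each library, which removes the rise common to genes of a given level. Limma then called 0 of 36 members and 0 of 3203 genes (0.0%); at an unadjusted p under 0.05 there were 12 members and 539 genes. The members farthest above were Zfp568 (0.78 ± 0.26), Zfp651 (0.73 ± 0.31), Zfp462 (0.70 ± 0.18) and Zfp3 (0.59 ± 0.25). Those farthest below were Zfp609 (-0.56 ± 0.19), Zfp189 (-0.53 ± 0.19), Zfp169 (-0.48 ± 0.22) and Zfp775 (-0.43 ± 0.25), and adjusted p-values of these 8 in limma were between 0.208 and 0.384. When the 2.6 mW, 1x library of 680 s was left out, Zfp462 was called higher, and no other member was, beside 1.4% of all genes. Within 10 classes of equal gene number by mean coverage, 21 of 36 members lay above the median of their class, by a median of 0.05.

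Most members were higher at the higher laser power. Zfp775 had 2, 2 and 14 with 1 mW against 26, 28 and 41 with 2.6 mW at 1x Dazl, and 3, 3 and 31 against 54, 44 and 54 at 4.2x. Only its 680 s value with 1 mW and 4.2x Dazl reached the range of those with 2.6 mW, and its change of 2.25 ± 0.29 was the highest of the members (adjusted p = 2.49e-09 in limma, 6 of 6 pairs). Zfp207 followed with 1.78 ± 0.30 and Zfp275 with 1.77 ± 0.34. In limma 34 of 36 members were higher at 2.6 mW (94.4%) and 0 lower, beside 93.4% of all genes, and the members' median change was 1.13 beside 1.22. The exceptions were Zfp91 (0.34 ± 0.22) and Zfp568 (0.51 ± 0.29).

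Against genes of equal coverage limma called 0 members and 0 genes (0.0%) for laser power, with 5 members and 646 genes at an unadjusted p under 0.05. Farthest above was Zfp775 at 0.83 ± 0.25 (adjusted p = 0.138 in limma), then Zfp512 (0.29 ± 0.20), Zfp407 (0.28 ± 0.14) and Zfp207 (0.27 ± 0.19). Farthest below were Zfp568 (-0.86 ± 0.26), Zfp281 (-0.59 ± 0.23), Zfp91 (-0.59 ± 0.16) and the SCAN-domain Zfp444 (-0.51 ± 0.17). In 10 coverage classes 11 of 36 members lay above their class median, with a median difference of -0.12, and -0.07 with 5 classes. A Dazl response that differs between the laser powers was called in 0 members and 1 of 3203 genes (0.0312%) by limma, with 7 members and 543 genes at an unadjusted p under 0.05. Zfp473 came nearest, with an interaction of 1.48 ± 0.38 (adjusted p = 0.124 in limma): its 30 s values went from 2 to 5 with Dazl at 1 mW and from 8 to 41 at 2.6 mW.

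**Figure D4:**
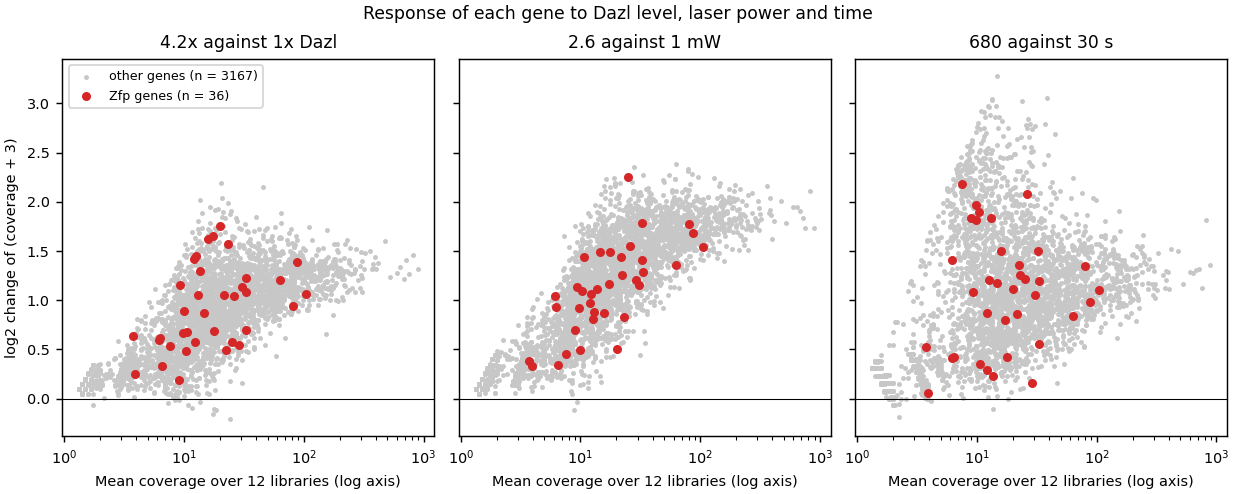
Change of each gene on the log2(coverage + 3) scale with Dazl level (4.2x minus 1x), laser power (2.6 minus 1 mW) and time (680 minus 30 s), against its mean coverage; Zfp genes are set off from the other genes. The members lie within the cloud of other genes in all 3 panels, with medians of 0.92, 1.13 and 1.11.

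Between 30 and 680 s the members ran from a steep rise to none that passed the test. Zfp592, part of a chromatin complex with Zmynd8, had 1, 1 and 12, then 2, 1 and 17, then 1, 1 and 18, then 2, 11 and 24 at the 3 times of the 4 series. Every 680 s value lay above every earlier value of Zfp592, and its change of 2.18 ± 0.23 was the highest of the members (adjusted p = 7.78e-14 in limma). Zfp609 had 16, 5 and 17, then 20, 14 and 32, then 38, 30 and 37, then 47, 43 and 47. Its values at 30 and 680 s overlapped across series and were within 1 of each other in 3 of 4 series, and its change was 0.16 ± 0.37 (adjusted p = 0.676 in limma). In limma 26 of 36 members were higher at 680 s (72.2%) and 0 lower, beside 73.0% of all genes, with medians of 1.11 and 1.02. From 30 to 180 s limma called 0 members and 0 genes (0.0%), with 0 members and 5 genes at an unadjusted p under 0.05. At 180 s 14, 26, 19 and 12 members were lower than at 30 s in the 4 series (38.9%, 72.2%, 52.8% and 33.3%), beside 27.3%, 65.1%, 48.5% and 30.3% of other genes.

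Against genes of equal coverage, 13 of 36 members departed in time in limma (36.1%), beside 30.1% of all genes. Of them 4 changed more, beside 17.0% of all genes: Zfp592 (1.08 ± 0.19, adjusted p = 0.00155), Zfp473 (1.01 ± 0.33, adjusted p = 0.034), Zfp444 (0.69 ± 0.21) and Zfp317 (0.65 ± 0.21). Just short of a call were Zfp707 (0.54 ± 0.20, adjusted p = 0.0558 in limma) and Zfp131 (0.71 ± 0.27, adjusted p = 0.0564). The other 9 changed less, beside 13.1% of all genes: Zfp609 (-0.94 ± 0.23, adjusted p = 0.00888), Zfp91 (-0.87 ± 0.19, adjusted p = 0.00536), the Vav-interacting Zfp655 (-0.78 ± 0.26), Zfp512 (-0.77 ± 0.25), Zfp810 (-0.77 ± 0.22), Zfp24 (-0.76 ± 0.18), Zfp433 (-0.73 ± 0.20), Zfp251 (-0.63 ± 0.22) and the RNA-binding Zfp106 (-0.55 ± 0.18). The call held for Zfp609 in every alternative run, and for Zfp592 in every run that tested it. With a mean of 7.583, Zfp592 was not in the run at a mean of at least 10. With libraries scaled to equal totals instead, 5 members were higher and 1 lower, and of all genes 306 (9.55%) higher and 48 (1.5%) lower, against 545 and 419 above. Among genes with a mean of at least 10, 3 of 26 members were called, all lower, beside 10.5% of all genes under that filter. Leaving out 1 library gave 8 members beside 26.6% of all genes (1 mW, 1x, 680 s), 8 beside 20.5% (1 mW, 4.2x, 30 s), 6 beside 21.4% (2.6 mW, 1x, 30 s), 7 beside 20.1% (2.6 mW, 1x, 680 s), 8 beside 24.1% (2.6 mW, 4.2x, 30 s) or 7 beside 19.9% (2.6 mW, 4.2x, 680 s). Without one of the other 6 libraries it gave 11 to 15 members, beside 24.1% to 33.8% of all genes.

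The 4 genes that changed more were at a small part of their 680 s value after 30 s, except Zfp473 in the strongest series. Zfp473 had 2, 2 and 26, then 5, 4 and 38, then 8, 6 and 64, then 41, 44 and 74, so its 30 s value was 7.69%, 13.2%, 12.5% and 55.4% of that at 680 s in the 4 series. Zfp444 had 1, 1 and 11, then 5, 5 and 21, then 2, 2 and 24, then 5, 12 and 30. Among those that changed less, Zfp655 had 1, 1 and 4, then 23, 10 and 16, then 11, 12 and 18, then 23, 22 and 23. Its 30 s value was 144% of that at 680 s in the second of these series. Zfp106 had 10, 5 and 20, then 21, 16 and 37, then 37, 33 and 52, then 52, 52 and 60. Zfp24, Zfp91 and Zfp810 belong to this group with values of at most 6, 12 and 12. At such values the added 3 compresses any change, also in the genes of equal coverage, and its part was not tested. The time response of other genes also differed sharply at this level. Its class median was 0.41 at means of 2.83 to 6.5, the class of Zfp24 and Zfp810. It was 1.39 at means of 6.5 to 9.58, the class of Zfp91. Over the members with at least 10 at 680 s, the median 30 s value was 15.2%, 45.0%, 30.1% and 72.1% of the 680 s value in the 4 series, beside 14.3%, 47.5%, 40.0% and 69.4% in other genes. In 10 coverage classes 19 of 36 members lay above their class median in time, with a median difference of 0.06. For single members the classes and the smooth trend could disagree. Zfp810, called lower, changed by 0.41 ± 0.24 before the trend was taken off, beside a median of 0.41 for other genes of its class. Zfp407, of the same class, changed by 1.40 ± 0.21 before and 0.41 ± 0.17 after, and was not called (adjusted p = 0.0801 in limma).

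**Figure D5:**
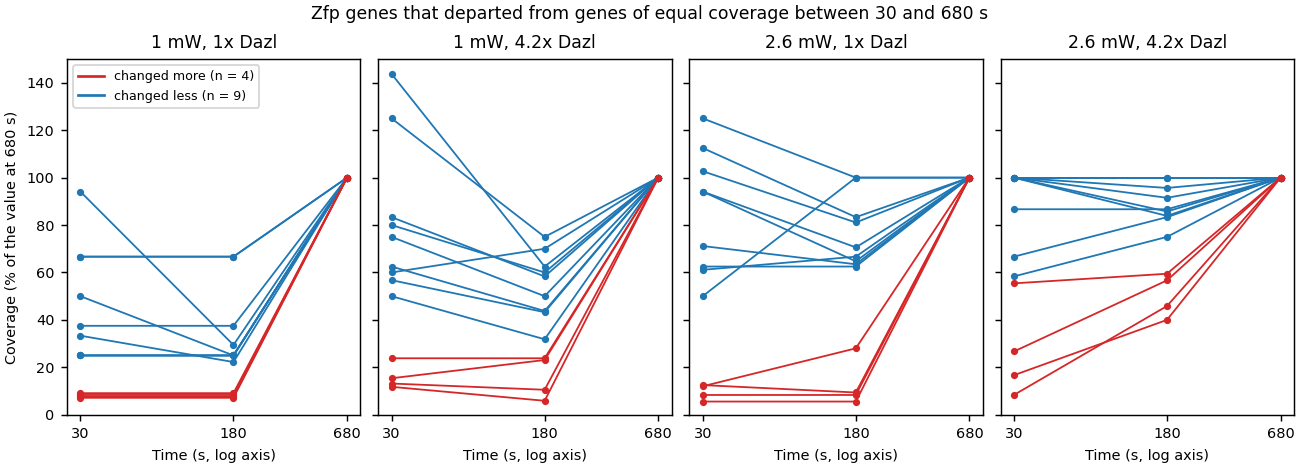
Coverage at 30, 180 and 680 s as a percent of the 680 s value for the 13 members that departed from genes of equal coverage in time, in 4 panels by laser power and Dazl level; time in s is on a log axis. The 4 genes that changed more start at 5.56% to 55.4%, and of the 9 that changed less Zfp655 starts as high as 144%.

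Genes that work with or resemble the members were counted in the same fits. Of 26 genes for KRAB co-repressors and heterochromatin 10 had a region, and 8 were higher with Dazl, 10 with laser power and 8 with time in limma. Cbx5, the heterochromatin protein HP1 alpha, was far above any Zfp gene with a mean of 190.5 over 11 regions, followed by the DNA methyltransferases Dnmt3a (42.75) and Dnmt1 (38.25). Of 171 genes of other C2H2 transcription factor families 33 had a region, and 24, 31 and 21 were higher with Dazl, laser power and time; Zbtb44 (77.25), Patz1 (57.75, all 5 regions shared with a noncoding gene) and the insulator protein gene Ctcf (41.42) led. Of 45 CCCH genes 18 had a region, with 15, 17 and 13 higher, led by Zc3h15 (133.9) and the splicing regulators Mbnl3 (130.4) and Mbnl1 (56.08). Of 101 other genes named for a zinc finger 24 had a region, with 21, 23 and 21 higher, led by Zfand6 (105.4), Zmym2 (89.33) and the ubiquitin ligase gene Znrf2 (81.5). Among all protein-coding genes 14.5% had a region. None of the listed genes was lower in any of these tests, and the background of the tests is that given above for all genes. The lists' median changes with Dazl were 0.96, 0.93, 0.97 and 1.18, beside 0.88 for all genes but the members.

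Against genes of equal coverage, departures in time were 1 more and 1 less among the 10 co-repressor genes, 5 and 2 among the 33 C2H2 genes, 3 and 3 among the 18 CCCH genes, and 5 and 2 among the 24 others. Among all genes 17.0% changed more and 13.1% less. Of the leading genes Zc3h15 changed less (-0.36 ± 0.10, adjusted p = 0.0186 in limma) and Zfand6 more (0.40 ± 0.12, adjusted p = 0.0242). In Dazl level and laser power none of the 4 lists held a departing gene, as no gene of all 3203 did in limma.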

How the data were processed

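The authors deposited, for each of 12 libraries, intervals with a score they call normalized coverage, whole numbers from 1 to 24 per position, with no strand. The build was mm10 and the tools included FastQC and Bowtie2, per the submitters' processing notes; their versions, the counting and the normalization were not given in the sources used here.

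Intervals of all libraries were merged across gaps of up to 10 nt into regions, and a region's value is its width times the score, summed. A region was given to a gene when it lay in 1 gene span of RefSeq GRCm38.p6, or when just 1 of several overlapping genes codes for protein; 500 regions were not assigned. Genes were tested with limma 3.58.1 under R 4.3.3, after adding 3 (each library has a lowest gene value, and 3 is the greatest of these) and taking log2, with additive terms for time, laser power and Dazl level, trend and robust eBayes, 7 residual degrees of freedom (6 with the interaction) and Benjamini-Hochberg adjustment over all 3203 genes at 0.05. With 1 library a condition, the error is departure from additivity, pooled over genes. All genes share the same 12 libraries, so their departures are not independent. Pooling them can make p-values too small, above all on values as deposited. For genes of equal coverage a loess curve (span 0.3) on the gene's mean log2 value was subtracted in each library. The scripts were tested on simulated data with known changes in Dazl level. Those data had independent errors, no tied libraries and no change in time beyond the trend, so they cannot test the departures in time.

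The members, lists and tests were chosen with earlier results of these data known. Genes named are the 12 with the highest mean coverage, those with 3 or more regions, the 4 highest and 4 lowest in each comparison with genes of equal coverage, those that departed in it, Zfp36, and the 3 leading genes of each related list; others were named after their values were seen. Alternatives changed the added constant, filter, joining distance, assignment, eBayes settings, adjustment and libraries. Finger numbers in proteins and motifs outside promoter windows were not analysed here.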

Additional observations from a re-analysis of the deposited data

Results flagged for a closer look

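Signal lay outside the comparisons in 2 Zfp genes whose regions also lie in another protein-coding gene, so that neither could be given the coverage without strand. The single region of Zfp646, also within Prss53, had a mean coverage of 11.67, with 1, 1 and 3, then 6, 6 and 13, then 23, 14 and 17, then 19, 18 and 19 at 30, 180 and 680 s in the series of 1 mW and 1x, 1 mW and 4.2x, 2.6 mW and 1x, and 2.6 mW and 4.2x Dazl. The 2 regions of Zfp276, also within Fanca, had a mean of 26.17 together, with 9, 3 and 26, then 9, 7 and 29, then 32, 22 and 51, then 20, 42 and 64. No 0 s library was analysed here to set beside them. A check for a library far from its group was not possible with 1 library per condition.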

How the results depend on the processing

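The labels carry no replicate numbers, so no fit had a replicate block. With the 6 matched sets of libraries as a block instead, 30 members were called for Dazl and 33 for laser power, beside 83.0% and 93.2% of all genes, and 0 for either against genes of equal coverage. Counts on values as deposited stayed within 1.5 times of the main value in every alternative run: without 1 library they were 25 to 33 for Dazl, 31 to 34 for laser power and 19 to 28 for time. Against genes of equal coverage they were 0 to 1 for Dazl and 0 for laser power without 1 library, and 6 to 15 for time. For time, the other counts outside that margin were 3 members at a mean of at least 10 (beside 10.5% of all genes) and 6 with equal library totals (beside 11.1%). At a mean of at least 10 fewer genes were tested and the trend was fitted anew. What lowered these counts was not tested. Among single members, the departure in time was lost in 0 settings by Zfp592 (of 24) and Zfp609 (of 25), in 1 by Zfp24 and by Zfp91, in 4 by Zfp433, and in 5 to 13 by the other 8. The value of Zfp317 went as low as 0.08, with a mean of at least 10. No result changed direction while called. The interaction was fitted once on each scale. The unknown read depth, the tied values and the lack of replicates limit every p-value.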
